A study of Homo sapiens with 4 samples.

Results

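Genes for the factors that accompany RNA polymerase II through a gene body were examined in cells labelled NB4, with or without GNE-987. NB4 is a human line that was derived from a patient with acute promyelocytic leukemia. The list holds 31 genes of the 58735 in the deposited table, chosen by name with earlier results of these data known. They encode DSIF, NELF, the PAF complex, FACT, the super elongation complex, TFIIS, the elongation kinases CDK12 and CDK13 with cyclin K, and the partners SPT6, IWS1 and SETD2. All 31 symbols were matched to a deposited identifier through GENCODE release 44.

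RNA-seq was carried out on 4 libraries. Of these, 2 are titled NB4-NC (GNE987 control) and 2 NB4-GNE987, which the study's figure legend gives as 25 nM of the compound for 1 day. The compound is a degrader with a pair of binding ends, of which one holds BET proteins and the other a ubiquitin ligase. Whether the control cells of the RNA-seq received vehicle is not given in the sources used here, nor whether the replicates were separate cultures, so P values measure the spread between these libraries, which may be technical.

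In transcription, DSIF and NELF hold polymerase II shortly after the start site, and the kinase P-TEFb, brought in by the super elongation complex among others, releases it. NELF leaves at release, whereas DSIF stays with the polymerase as an elongation factor. The PAF complex, SPT6, IWS1 and FACT then help the polymerase through nucleosomes, TFIIS restarts polymerase that has slipped back, CDK12 and CDK13 phosphorylate its tail, and SETD2 methylates histone H3 behind it. Fusions of KMT2A with AFF1, MLLT1, MLLT3 or ELL occur in acute leukemia.

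The libraries hold 19483255 and 19273136 reads on genes for control and 12337155 and 12840627 for GNE-987, as recovered from the steps of the values. The marker genes went against the NB4 label, so the identity of the cells is in doubt and they are described as labelled. MPO, a granule enzyme of promyelocytes, was at 0.0246 and 0 FPKM in control and at 11.8 and 11.3 FPKM after GNE-987. GATA1, the erythroid transcription factor, was at 123.8 and 121.8 FPKM in control and at 15.1 and 12.5 FPKM after GNE-987. Of 10 granulocyte precursor genes, MPO among them, 3 reached 1 FPKM in both control libraries (AZU1, LYZ and SPI1). CTSG and ELANE were listed at 0 in both. The granulocyte precursor list summed to 12.9 and 11.2 FPKM in control and 39.0 and 37.3 FPKM with GNE-987. Of 12 erythroid genes, 11 reached 1 FPKM in both control libraries, and the list summed to between 444.5 and 476.9 FPKM in control and between 748.9 and 864.8 FPKM with GNE-987. The T cell list of 4 genes summed to 18.1 and 17.0 FPKM in control and 21.2 and 21.8 FPKM with GNE-987, nearly all of it CD3D. The B cell list of 4 genes summed to under 1 FPKM in control and to 25.2 and 24.0 FPKM with GNE-987, nearly all of it CD79A. Mitochondrial genes took 3.74% and 4.53% of the reads in control and 15.7% and 15.3% with GNE-987. The part of these differences in the results was not tested, and a change in the mix of cells and a change of RNA per cell cannot be told apart in bulk RNA.

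Expression is given as FPKM, fragments scaled by exon length and by a library total that the authors set. Changes on the log2(FPKM + 0.1) scale were tested by limma for the 16668 genes whose mean was 0.5 FPKM or more, of which 10996 are protein-coding. The thresholds follow the methods of the study. A gene passed, and is called higher or lower, when its unadjusted P value was under 0.05 and its level had more than doubled or fallen below 0.5 times the control level. Adjusted P values come from limma, with the Benjamini-Hochberg method applied to all 16668 genes. For low genes, fold changes on this scale are understated.

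Of the 31 genes, 29 were tested and 14 passed, 12 of them lower and 2 higher with GNE-987. The lower share was 41.4% of those tested, beside 31.7% of protein-coding genes and 24.9% of all genes tested, and the higher share was 6.90%, beside 24.0% and 33.6%. In either direction 55.7% of protein-coding genes passed. The genes that fell were NELFA and NELFB, the PAF complex genes PAF1, LEO1 and CDC73, ELL, EAF1, EAF2, MLLT3, TCEA1, CDK12 and IWS1, and those that rose were SUPT5H, whose sign turned with scaling to GAPDH, and ELL3. ELL3 entered the test only through its GNE-987 values, and MLLT3 and EAF2, whose GNE-987 means were under the filter, only through their control values. The median log2 fold change of the 29 genes was -0.44, against -0.29 for the protein-coding genes and 0.17 for all genes tested, and with both low genes kept in and no filter it was -0.42 over 31 genes. An adjusted P value under 0.05 was reached by 24 of the 29, beside 9135 of the 10996 protein-coding genes. The groups did not overlap for 28 of the 29, beside 93.3% of protein-coding genes.

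Summed over the 31 genes, expression was 431.1 and 432.0 FPKM in control and 345.2 and 341.1 FPKM with GNE-987. For the protein-coding genes tested, the sums were 195382 and 204500 FPKM in control and 515713 and 503870 FPKM with GNE-987. All of these sums depend on the deposited scaling. The genes cover a wide range of levels, from listed values near 0 to 63.4 FPKM for SSRP1 in control replicate 2.

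**Figure D1:**
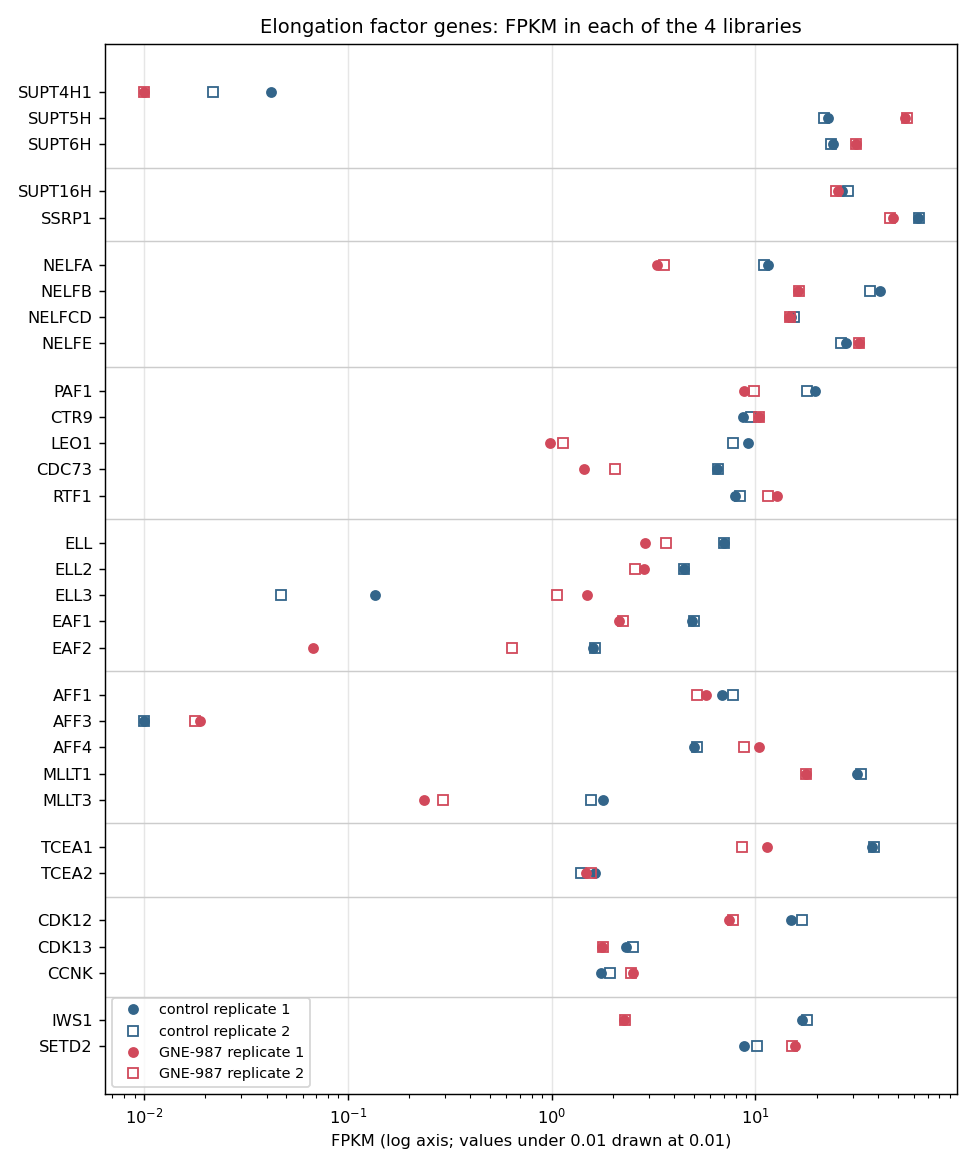
FPKM (log axis) of each of the 31 genes in the 4 libraries, grouped by complex, with filled circles for replicate 1 and open squares for replicate 2. LEO1, IWS1 and TCEA1 show the wide gap between control and GNE-987 libraries, whereas NELFCD and TCEA2 lie at nearly the same level in all 4, and SUPT4H1 and AFF3 lie near 0 throughout.

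**Figure D2:**
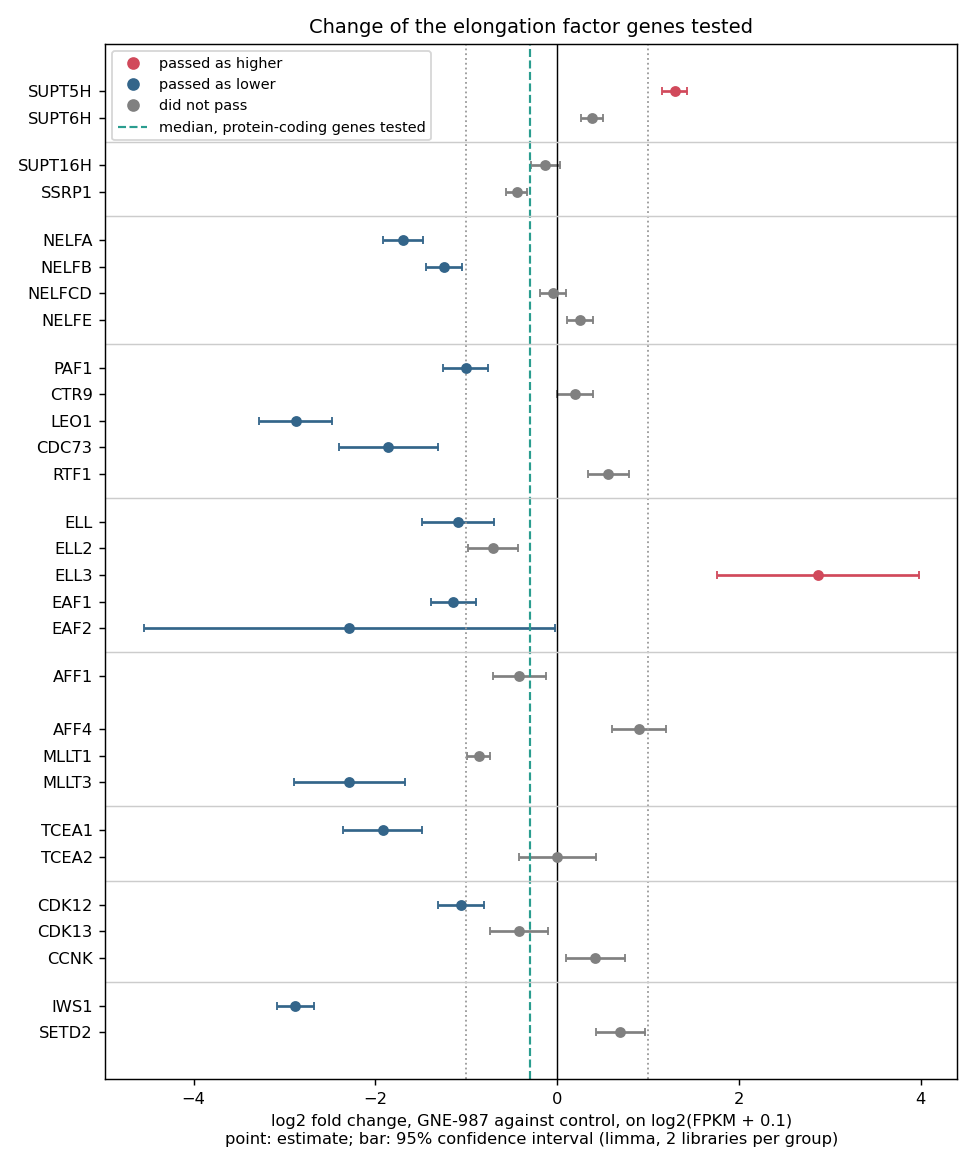
Log2 fold change of the 29 tested genes (point) with its 95% confidence interval (bar), GNE-987 against control, in the deposited scaling. LEO1 and IWS1 lie at -2.88, the subunits of NELF and of the PAF complex lie on both sides of the dotted line at -1, and the rise of SUPT5H turns to -0.55 with scaling to GAPDH.

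NELF is built of 4 subunits, of which 2 passed as lower in the deposited scaling and all 4 with scaling to GAPDH, where 31.7% and 72.8% of protein-coding genes did. NELFA (chromosome 4, 1982717 to 2041903, minus strand of GRCh38), the subunit that contacts the polymerase, was at 11.6 and 11.01 FPKM in control and at 3.31 and 3.55 FPKM with GNE-987. NELFB (chromosome 9, 137255327 to 137273542, plus strand), a scaffold subunit, was at 40.8 and 36.7 FPKM in control and at 16.3 and 16.4 FPKM with GNE-987. For both genes each GNE-987 library lay below each control library, by 3.23-fold for NELFA (log2 fold change -1.69, SE 0.0773, adjusted P = 0.000309) and by 2.36-fold for NELFB (log2 fold change -1.24, SE 0.0694, adjusted P = 0.000448). NELFCD was at 15.0 and 15.4 FPKM in control and 14.7 and 14.8 FPKM with GNE-987, and the 95% confidence interval of its log2 fold change ran from -0.19 to 0.09. NELFE, the RNA-binding subunit, was at 28.0 and 26.4 FPKM in control and 32.4 and 32.3 FPKM with GNE-987, a log2 fold change of 0.25 that did not reach the fold threshold and turned to -0.093 with quantile normalization, -0.52 with total reads and -1.60 with GAPDH. In GENCODE release 44, 97.4% of the exon bases of NELFCD also lie in exons of CTSZ on the opposite strand, so reads of the pair could be given to either gene if the counting did not use strand.

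The window before the NELFB start is shown because it had the highest GC content of the 28 promoters matched, 78.4%. It is the RefSeq promoter on GRCh38.p14 at chr9:137255077-137255326, plus strand, which ends at the base before the start site. Capitals mark matches to the GC box (GGGCGG) and to the NRF1 motif, the letters GCGCA followed by TGCGC without a gap.
NELFB: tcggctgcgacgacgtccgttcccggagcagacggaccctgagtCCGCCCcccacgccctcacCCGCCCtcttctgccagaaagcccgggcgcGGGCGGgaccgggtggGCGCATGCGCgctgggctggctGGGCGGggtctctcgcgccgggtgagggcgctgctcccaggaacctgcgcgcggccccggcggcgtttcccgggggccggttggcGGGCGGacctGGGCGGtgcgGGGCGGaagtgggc

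The PAF complex, which travels with elongating polymerase and is needed for several histone marks, is encoded by 5 of the genes, of which 3 passed as lower in the deposited scaling and all 5 with scaling to GAPDH, beside the same 31.7% and 72.8% of protein-coding genes. LEO1 (chromosome 15, 51938025 to 51971778, minus strand) gave 9.16 and 7.73 FPKM in control and 0.982 and 1.14 FPKM after GNE-987, on 22 and 27 reads. This was a 7.34-fold lower level (log2 fold change -2.88, SE 0.142, adjusted P = 0.000358), and 1.42% of the protein-coding genes tested had a lower log2 fold change. CDC73, the gene of parafibromin (chromosome 1, 193121983 to 193254815, plus strand), was at 6.47 and 6.56 FPKM in control and at 1.44 and 2.06 FPKM with GNE-987 (log2 fold change -1.86, SE 0.193, adjusted P = 0.00192). Both genes were lower in the GNE-987 libraries by far more than the replicates differed.
PAF1, at 19.7 and 17.9 FPKM in control and 8.83 and 9.81 FPKM with GNE-987, passed at the edge of the fold threshold, with a log2 fold change of -1.01 (SE 0.0877, adjusted P = 0.00122). Leaving out control replicate 1 or GNE-987 replicate 1 gave -0.94 and -0.93, short of the fold threshold. PAF1 did not pass with median-ratio scaling (-0.89), a pseudocount of 1 (-0.94), limma-voom on recovered reads (-0.997) or the test against a fold change of 2. CTR9, the scaffold of the complex, was at 8.74 and 9.50 FPKM in control and 10.5 and 10.5 FPKM with GNE-987. RTF1, which is more loosely bound, was at 7.94 and 8.45 FPKM in control and 12.7 and 11.6 FPKM with GNE-987. Neither CTR9 (log2 fold change 0.20, 95% interval 0.0033 to 0.39) nor RTF1 (0.56, 0.34 to 0.79) reached a fold change of 2, and both signs turned with scaling to total reads (-0.56 and -0.20) and to GAPDH (-1.64 and -1.27).

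IWS1 and LEO1 had nearly the same fall. IWS1 (chromosome 2, 127436207 to 127526886, minus strand), which binds SPT6 and links the polymerase to RNA export and to SETD2, was at 16.9 and 18.0 FPKM in control and at 2.28 and 2.29 FPKM after GNE-987. The fall was 7.35-fold (log2 fold change -2.88, SE 0.0714, adjusted P = 0.00014), and 1.41% of the protein-coding genes had a lower log2 fold change. Its partners SUPT6H and SETD2 did not pass. SUPT6H, the gene of SPT6, was at 24 and 23.6 FPKM in control and 31.04 and 31.01 FPKM with GNE-987 (log2 fold change 0.38). SETD2, the methyltransferase for histone H3 lysine 36, was at 8.79 and 10.2 FPKM in control and 15.7 and 15.2 FPKM with GNE-987 (log2 fold change 0.70, 95% interval 0.43 to 0.97). Both were above their control values in the deposited scaling, and with scaling to total reads their log2 fold changes were -0.39 and -0.067.

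DSIF is a pair of SPT4 and SPT5. SUPT5H (chromosome 19, 39436156 to 39476670, plus strand), the gene of SPT5, was at 22.8 and 21.8 FPKM in control and at 54.0 and 55.6 FPKM with GNE-987, resting on 3871 reads or more in every library. It rose 2.45-fold in the deposited scaling (log2 fold change 1.29, SE 0.048, adjusted P = 0.000221), whereas its log2 fold change was 0.91 with quantile normalization, 0.53 with scaling to total reads and -0.55 with scaling to GAPDH. GAPDH itself was at 398.1 and 432.2 FPKM in control and at 1501 and 1499 FPKM with GNE-987.
SUPT4H1, the gene of SPT4, was listed at 0.0418 and 0.0217 FPKM in control, on 2 reads and 1 read, and at 0 in both GNE-987 libraries. In GENCODE release 44, 89.9% of its exon bases lie in exons of other genes, 63.7% on the same strand, where ENSG00000285897 overlaps it. That gene was listed at 0.0776 FPKM or less in every library. No fold change is given for SUPT4H1, and the part of the overlap in its values was not tested.

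FACT, the histone chaperone of SPT16 and SSRP1, did not pass in the deposited scaling. SUPT16H was at 26.7 and 28.5 FPKM in control and 25.6 and 24.7 FPKM with GNE-987, with a 95% interval of its log2 fold change from -0.29 to 0.03. SSRP1 was at 63.0 and 63.4 FPKM in control and 47.3 and 45.7 FPKM with GNE-987 (log2 fold change -0.44, SE 0.0409, adjusted P = 0.00141), a difference larger than the replicate spread but short of a fold change of 2. SSRP1 passed as lower with scaling to total reads (-1.21), quantile normalization (-1.07) and scaling to GAPDH (-2.29). SUPT16H was at -0.90 with scaling to total reads and passed as lower with scaling to GAPDH (-1.98).

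The ELL proteins raise the catalytic rate of polymerase II, and the EAF proteins bind and assist them. ELL was at 7.02 and 7.03 FPKM in control and at 2.89 and 3.65 FPKM with GNE-987 (log2 fold change -1.09, SE 0.139, adjusted P = 0.00338). Without GNE-987 replicate 1, the log2 fold change of ELL was -0.92, short of the fold threshold. ELL did not pass with median-ratio scaling (-0.97), a pseudocount of 1 (-0.92) or the test against a fold change of 2. EAF1 was at 4.90 and 4.99 FPKM in control and at 2.14 and 2.24 FPKM with GNE-987 (log2 fold change -1.14, SE 0.0872, adjusted P = 0.000885). It did not pass with a pseudocount of 1 (-0.90) or the test against a fold change of 2. In GENCODE release 44, 40.0% of the exon bases of EAF1 lie in exons of other genes, on the opposite strand. ELL2 was at 4.45 and 4.47 FPKM in control and 2.84 and 2.57 FPKM with GNE-987 and did not reach the fold threshold (log2 fold change -0.70, 95% interval -0.97 to -0.43).
The remaining genes of this group were low. EAF2 was at 1.59 and 1.63 FPKM in control and at 0.0676 and 0.640 FPKM after GNE-987, on 1 read and 10 reads. Its log2 fold change of -2.28 had an SE of 0.799 and an adjusted P value of 0.0614, so it passed only at the unadjusted P value of 0.0487, and it did not pass when either control library was left out. Without GNE-987 replicate 1 the log2 fold change of EAF2 was -1.21 and without replicate 2 it was -3.36, and it passed in both. ELL3 was at 0.136 and 0.0471 FPKM in control, on 9 and 3 reads, and rose to 1.495 and 1.06 FPKM after GNE-987, on 36 and 27 reads (log2 fold change 2.87, SE 0.392, adjusted P = 0.00415). It stayed positive under each of the 4 other scalings. In GENCODE release 44, 70.9% of the exon bases of ELL3 lie in exons of other genes, 62.3% on the same strand, where ENSG00000262560 was listed at 0 in every library. ELL3 also overlaps PDIA3, at 37.1 and 35.5 FPKM in control and 64.9 and 63.9 FPKM with GNE-987, and SERF2, at 13.0 and 9.90 FPKM in control and 40.0 and 41.7 FPKM with GNE-987, on the opposite strand. The part of these genes in the values of ELL3 was not tested.

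AFF1 and AFF4 are scaffolds of the super elongation complex, and MLLT1 (ENL) and MLLT3 (AF9) are its readers of acylated histones. AFF1 was at 6.86 and 7.74 FPKM in control and at 5.74 and 5.16 FPKM with GNE-987, while AFF4 was at 5.002 and 5.18 FPKM in control and at 10.4 and 8.83 FPKM with GNE-987. Neither reached a fold change of 2, with log2 fold changes of -0.41 (95% interval -0.71 to -0.12) and 0.90 (0.60 to 1.19), the latter turning to -0.93 with scaling to GAPDH. AFF4 passed as higher with median-ratio scaling and without GNE-987 replicate 2, with a log2 fold change of 1.01 in each. AFF3 was at no more than 2 reads in any library and was not tested.
MLLT3 (chromosome 9, 20341669 to 20622499, minus strand) gave 1.78 and 1.56 FPKM in control and 0.235 and 0.293 FPKM after GNE-987, on 16 and 21 reads (log2 fold change -2.28, SE 0.216, adjusted P = 0.00149). MLLT1, its more highly expressed paralog, was at 31.7 and 32.8 FPKM in control and at 17.7 and 17.7 FPKM with GNE-987, a log2 fold change of -0.86 (SE 0.0461, adjusted P = 0.000409) that missed the fold threshold. With scaling to total reads, quantile normalization and scaling to GAPDH, MLLT1 passed as lower, at -1.63, -1.13 and -2.71.

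The windows before the starts of these paralogs are shown because the paralogs differ both in level and in fold change. They are RefSeq promoters on GRCh38.p14, both on the minus strand, at chr19:6279976-6280225 for MLLT1 with 77.2% GC and at chr9:20622500-20622749 for MLLT3 with 72% GC. Capitals mark matches to the GC box, to the CCAAT box (CCAAT) and to the E-box (CACGTG), on either strand. The E-box was found for MLLT1 and not for MLLT3.
MLLT1: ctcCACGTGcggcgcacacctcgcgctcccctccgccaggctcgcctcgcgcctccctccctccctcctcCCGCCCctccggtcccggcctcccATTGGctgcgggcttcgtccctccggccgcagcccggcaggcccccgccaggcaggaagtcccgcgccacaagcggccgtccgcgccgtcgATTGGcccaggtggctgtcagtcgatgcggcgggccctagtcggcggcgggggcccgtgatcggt
MLLT3: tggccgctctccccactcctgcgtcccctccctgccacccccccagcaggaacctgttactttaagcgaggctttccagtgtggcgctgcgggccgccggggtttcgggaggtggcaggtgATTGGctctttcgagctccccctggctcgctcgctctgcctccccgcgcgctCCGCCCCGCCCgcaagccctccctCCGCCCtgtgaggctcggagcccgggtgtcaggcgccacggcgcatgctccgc

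TFIIS is encoded mainly by TCEA1 in most cells, with TCEA2 as a more restricted paralog. TCEA1 (chromosome 8, 53966552 to 54022448, minus strand) gave 37.5 and 38.4 FPKM in control and 11.5 and 8.65 FPKM with GNE-987, a 3.78-fold fall (log2 fold change -1.92, SE 0.153, adjusted P = 0.000973). TCEA2 was at 1.64 and 1.39 FPKM in control and at 1.47 and 1.56 FPKM in the GNE-987 libraries. Of the 29 genes only TCEA2 had groups that overlapped, and its log2 fold change had a 95% interval from -0.42 to 0.42. The sum of both paralogs was 39.1 and 39.8 FPKM in control and 12.9 and 10.2 FPKM with GNE-987.

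CDK12 (chromosome 17, 39461486 to 39567559, plus strand), a kinase of the polymerase tail on which long DNA repair genes depend, was at 14.9 and 17.0 FPKM in control and at 7.46 and 7.81 FPKM with GNE-987 (log2 fold change -1.05, SE 0.0886, adjusted P = 0.00111). Without control replicate 2, its log2 fold change was -0.96, short of the fold threshold. CDK12 did not pass with median-ratio scaling (-0.94), a pseudocount of 1 (-0.97) or the test against a fold change of 2. CDK13 was at 2.31 and 2.51 FPKM in control and at 1.77 and 1.78 FPKM with GNE-987 (log2 fold change -0.42, 95% interval -0.74 to -0.10). CCNK, the cyclin of both kinases, was at 1.74 and 1.92 FPKM in control and at 2.50 and 2.47 FPKM with GNE-987 (log2 fold change 0.42, 95% interval 0.097 to 0.74), a direction that turned with scaling to total reads (-0.32) and to GAPDH (-1.35). CDK13, ELL2 and AFF1 passed as lower with scaling to total reads, at -1.16, -1.45 and -1.17, and with scaling to GAPDH, at -2.18, -2.50 and -2.24. Of the exon bases of CCNK, 59.5% lie in exons of another gene on the opposite strand, CCDC85C, which was at 1.63 and 1.85 FPKM in control and 1.87 and 2.05 FPKM with GNE-987.

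The CDK12 window, on GRCh38.p14 at chr17:39461236-39461485, plus strand, is shown beside that of NELFB because both genes passed as lower while the GC content of the CDK12 window, 48.8%, lies near the lower end of the 28 promoters. It is printed in lower case throughout because none of the 6 motifs searched was found in it.
CDK12: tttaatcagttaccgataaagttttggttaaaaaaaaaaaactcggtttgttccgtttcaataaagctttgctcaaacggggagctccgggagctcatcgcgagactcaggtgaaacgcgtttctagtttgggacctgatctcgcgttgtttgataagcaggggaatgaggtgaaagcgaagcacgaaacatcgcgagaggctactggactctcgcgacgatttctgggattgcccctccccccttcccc

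Promoter windows of 250 bases before the start were available for 28 of the 31 genes and for 15842 protein-coding genes in the RefSeq table of GRCh38.p14. Their median GC content was 66.8% for the 28 genes, with a range from 48.4% to 78.4%, against 62.4% for all. On either strand, the TATA box (TATAAA) was found in 0 of the 28 windows and in 9.23% of all, the GC box (GGGCGG) in 21 of 28 and in 56.0% of all, and the CCAAT box (CCAAT) in 8 of 28 and in 34.5% of all. The ETS motif (CCGGAAG) was in 7 of 28 windows and in 11.8% of all, the E-box (CACGTG) in 3 of 28 and in 7.84% of all, and the NRF1 motif in 1 of 28 and in 1.48% of all. Of the 10 matched genes that passed as lower, 7 had the GC box and 5 the CCAAT box, and of the other 18 matched genes 14 and 3 did. These matches describe the letters of the windows only.

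The FPKM ratio of 2 genes within a library does not depend on a single factor by which the library is scaled. For 9 pairs of paralogs or partners, the log2 ratio was compared between the groups with an exact permutation test, two-sided, in which 2 libraries against 2 cannot give a P value below 0.333. Every pair was at that value, 0.333 before and after Benjamini-Hochberg adjustment over the 9 pairs, so the values are described here. The pair of SUPT4H1 and SUPT5H is left out because SUPT4H1 was near 0.
The FPKM ratio of TCEA1 to TCEA2 was 22.9 and 27.6 in control and 7.80 and 5.55 with GNE-987. That of AFF1 to AFF4 was 1.37 and 1.49 in control and 0.553 and 0.585 with GNE-987, so that AFF1 was the higher of the pair in both control libraries and AFF4 in both GNE-987 libraries. MLLT1 exceeded MLLT3 by a ratio of 17.8 and 21.0 in control and of 75.0 and 60.6 with GNE-987. CDK12 exceeded CDK13 by a ratio of 6.46 and 6.78 in control and of 4.22 and 4.39 with GNE-987.
CCNK was at 0.117 and 0.113 times the level of CDK12 in control and at 0.335 and 0.316 times with GNE-987. SUPT16H was at 0.423 and 0.449 times the level of SSRP1 in control and at 0.541 times in both GNE-987 libraries. In each of these 6 pairs the difference in log2 ratio, from -1.92 for TCEA1 to TCEA2 to 1.47 for CCNK to CDK12, was larger in size than the SD between the replicates of either group for that pair. These differences are on the log2(FPKM + 0.1) scale and depend on the pseudocount where a gene is low, that of MLLT1 to MLLT3 being 1.42, against 0.25 with a pseudocount of 1 and 1.76 with 0.01. The ratio of ELL to ELL2 was 1.58 and 1.57 in control and 1.02 and 1.42 with GNE-987, a difference in log2 ratio of -0.39 against an SD of 0.333 in the GNE-987 group. The ratio of EAF1 to EAF2 was 3.07 and 3.05 in control and 31.6 and 3.50 with GNE-987, where it rests on the single read of EAF2 in replicate 1.

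**Figure D3:**
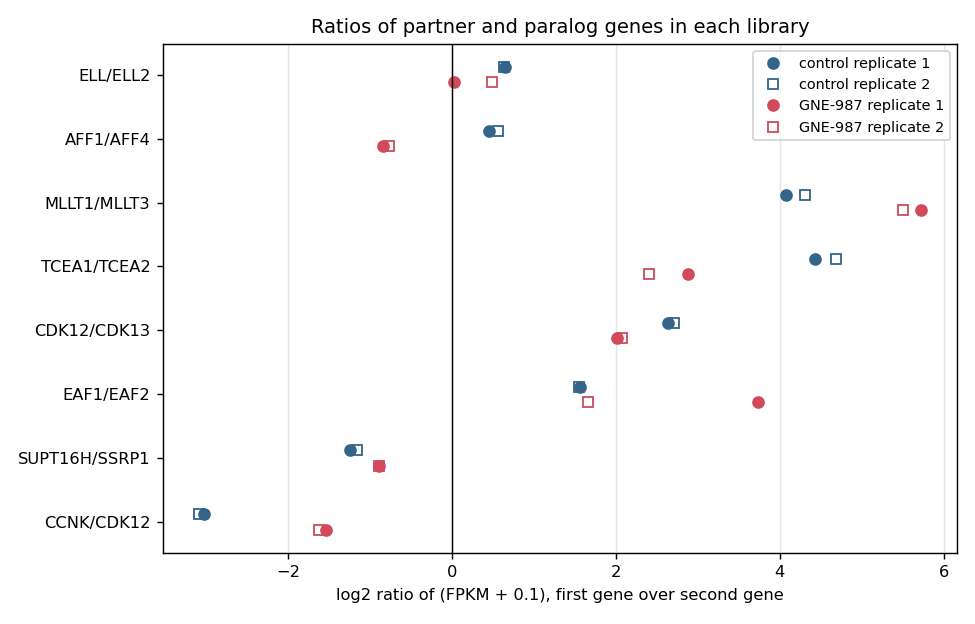
Log2 ratio of (FPKM + 0.1) for 8 pairs of paralogs or partners in each of the 4 libraries, with filled circles for replicate 1 and open squares for replicate 2. The ratio of AFF1 to AFF4 crosses 0 between the groups, and the GNE-987 replicates of EAF1 to EAF2 lie far apart, at 3.74 and 1.66.

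The scaling between libraries moved the median of all genes. Scaling to total reads on genes shifted the median of all tested genes by -0.73, scaling to GAPDH by -1.77, quantile normalization by -0.42 and median-ratio scaling by 0.11. The median of the elongation factor genes moved with it. Single-factor scalings moved genes nearly alike, apart from low genes, on which the pseudocount weighs. With scaling to GAPDH, SUPT5H went from 1.29 to -0.55, and the low gene ELL3 from 2.87 to 1.54. With quantile normalization AFF1 stayed near its deposited value, at -0.40, and SSRP1 went to -1.07. The median of the elongation factor genes, as log2 fold change relative to that of the protein-coding genes, was -0.15 in the deposited scaling, -0.17 with total reads, -0.21 with GAPDH, -0.23 with quantile normalization and -0.15 with median-ratio scaling. The number that passed as lower was 17 with total reads, where 50.7% of protein-coding genes did, 26 with GAPDH, where 72.8% did, 14 with quantile normalization, where 39.9% did, and 8 with median-ratio scaling, where 28.4% did. As higher, 1 passed with total reads, GAPDH and quantile normalization, where 15.8%, 10.4% and 17.9% of protein-coding genes did, and 3 with median-ratio scaling, where 25.7% did. A pseudocount of 1 left 7 genes lower and 2 higher, beside 23.0% and 20.3% of protein-coding genes, and a test against a fold change of 2 left 7 and 2, beside 24.0% and 20.6%. With a pseudocount of 0.01, no filter, adjusted P values or limma-voom on recovered reads, 11 genes were lower and 2 higher, beside 32.5% and 24.2%, 22.5% and 24.8%, 31.6% and 24.0%, and 32.3% and 24.7%. With a mean of at least 1 FPKM, 10 were lower and 1 higher, beside 32.4% and 22.0%. Without control replicate 1, control replicate 2 or GNE-987 replicate 1, 10 were lower and 2 higher, beside 30.0% and 23.6%, 29.3% and 23.3%, and 31.1% and 22.8%. Without GNE-987 replicate 2, 12 were lower and 3 higher, beside 31% and 22.9%. With all 4 libraries kept, 7 genes passed as lower in every alternative setting in which they were tested. They were NELFA, NELFB, LEO1, CDC73, MLLT3, TCEA1 and IWS1, with MLLT3 not tested under the filter of at least 1 FPKM. The share of protein-coding genes that did so was not worked out, and the settings reuse the same libraries. The count is therefore not read as a trait of the list.

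**Figure D4:**
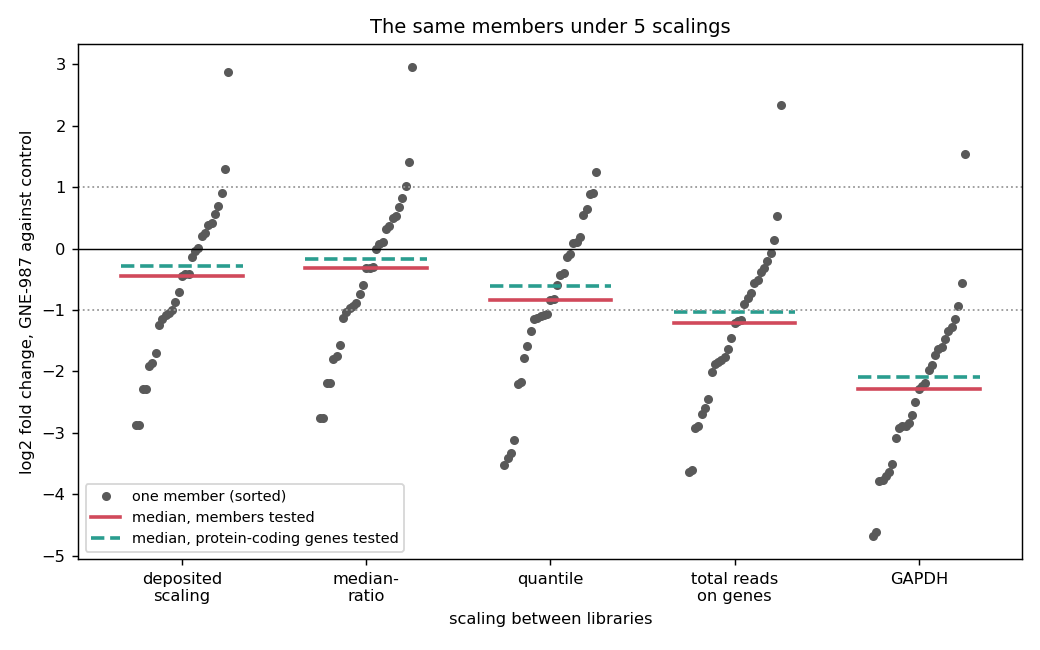
Log2 fold change of the 29 tested genes (dots, sorted within each setting), their median (solid line) and the median of the protein-coding genes tested (dashed line) under 5 scalings between libraries. Both medians move from -0.44 and -0.29 in the deposited scaling to -2.29 and -2.08 with scaling to GAPDH.

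Gene length was compared with the change as a description across genes, which are not replicates and share the same libraries. The genomic span of the 29 genes ran from 4.71 to 280.8 kb with a median of 53.9 kb, against a median of 28.9 kb for the protein-coding genes. Spearman's rho between span and log2 fold change was -0.21 over the 29 genes and -0.18 over the 10996 protein-coding genes. Of the elongation factor genes under 20 kb, 2 of 6 passed as lower, of those from 20 to 80 kb, 6 of 15, and of those of 80 kb and over, 4 of 8. The shares of protein-coding genes in the same bins were 26.5%, 33.5% and 38.0%.

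Genes that start back to back with a neighbour were counted, but the share of all protein-coding genes that do so was not worked out. A gene on the opposite strand began within 500 bases before the start of 14 of the 31 genes, a distance chosen after values had been seen. For 8 of these the neighbour was a tested protein-coding gene. The log2 fold changes in the deposited scaling had the same sign in 4 pairs and opposite signs in 4. Among the opposite pairs, that of TCEA2 was 0.002, and those of TCEA2 and NELFE turned negative with scaling to total reads. The split therefore describes the deposited scaling only. Starts here are the outermost GENCODE ends, which for some genes lie far from the RefSeq starts of the promoter windows. NELFA starts at 2041903 in GENCODE, while its window lies at 2008975 to 2009224. The GENCODE starts of SUPT5H and TCEA2 are 39436156 and 64049836, while their windows begin at 39445332 and 64056722. Pairs were not worked out from RefSeq starts, so the counts hold for GENCODE starts only. By its GENCODE start, SUPT5H begins 207 bases from RPS16, a ribosomal protein gene. RPS16 was at 266.6 and 260.6 FPKM in control and at 1173 and 1189 FPKM with GNE-987. By its GENCODE start, NELFA begins 92 bases from C4orf48. C4orf48 was at 41.3 and 26.4 FPKM in control and at 81.1 and 84.3 FPKM with GNE-987, while NELFA fell. EAF2 begins 104 bases from IQCB1, which was at 9.83 and 8.24 FPKM in control and at 1.65 and 1.52 FPKM with GNE-987. PAF1 begins 149 bases from MED29, a Mediator subunit gene, which was at 10.8 and 10.03 FPKM in control and at 17.2 and 18.5 FPKM after GNE-987. The SUPT6H neighbour SDF2, the CCNK neighbour SETD3 and the NELFE neighbour SKIC2 did not pass. SOX18, beside the GENCODE start of TCEA2, passed as lower with a log2 fold change of -2.38.
Noncoding genes that start back to back with an elongation factor gene and were tested numbered 4, and 3 of them passed as higher, beside 51.3% of long noncoding RNA genes tested. All 3 were under the filter of 0.5 FPKM in control and entered the test only through their GNE-987 values, so the count supports nothing about them. AFF4-DT was at 0.220 and 0.114 FPKM in control and at 7.27 and 1.72 FPKM with GNE-987. CDK13-DT was at 0.194 and 0.324 FPKM in control and at 4.77 and 4.72 FPKM with GNE-987. ENSG00000260830, beside SUPT16H, was at 0.207 and 0 FPKM in control and at 1.90 and 3.96 FPKM with GNE-987.

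Of 24 other genes of the same pathway, 22 were tested, 6 passed as lower (27.3%) and 5 as higher (22.7%), beside 31.7% and 24.0% of protein-coding genes, and their median log2 fold change was -0.21. In P-TEFb and its inhibitory 7SK particle, the kinase gene CDK9 was at 13.0 and 13.1 FPKM in control and 10.4 and 10.4 FPKM with GNE-987 and did not pass, whereas CCNT2, a cyclin partner of CDK9, and LARP7, a protein of the particle, passed as lower with log2 fold changes of -1.51 and -1.15. BRD2 passed as higher with a log2 fold change of 1.76. ICE2 and ZC3H8, which belong to the little elongation complex, passed as lower with log2 fold changes of -1.81 and -1.14, as did RECQL5 with -1.83. ELOF1, the Elongin subunits ELOB and ELOC, and the histone chaperone gene SPTY2D1 passed as higher with log2 fold changes of 2.25, 1.73, 1.02 and 2.26 in the deposited scaling. With scaling to total reads 2 of the 24 genes passed as higher and 11 as lower, beside 15.8% and 50.7% of protein-coding genes, and with scaling to GAPDH 0 and 17, beside 10.4% and 72.8%.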

How the data were processed

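RNA-seq of cells labelled NB4 gave 4 libraries, 2 per group by their labels. The deposited table holds FPKM per gene, which the authors made from filtered reads aligned with HISAT2 2.0.5 to hg38 (submitters' processing notes). The counting program and its annotation are not given in the sources used here. Gene names, types and positions are from GENCODE release 44, which holds 58207 of the 58735 identifiers (99.1%).

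FPKM values plus a pseudocount of 0.1 were put on the log2 scale, and genes whose mean was below 0.5 FPKM were dropped. The fit used limma 3.58.1 under R 4.3.3, with an intensity trend and without a replicate block, and was tested on simulated data. As the deposited values are FPKM, the count test of the study was not run. Reads were worked out from the step sizes of the FPKM values (tolerance 0.01 of a read). For 53.0% of the genes above 0 this gave whole reads at release 44 exon lengths, and for the rest a length had to be searched, so that their reads are less certain. The totals behind the deposited values were 0.884 to 0.898 times the library sizes after TMM scaling of these reads. Against the unscaled reads on genes the totals differed by group. They were 1.18 and 1.15 times those reads in control and 0.678 and 0.687 times with GNE-987. Scaling to total reads on genes removes this difference. The GNE-987 libraries are the shallower pair, so their low values are the less precise.

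All 31 elongation factor genes and the other pathway genes that passed are named by rule, except for values that are not reported here. CDK9 and the neighbouring genes were picked once values were known. The genes and lists were chosen with earlier results of these data known. Alternatives were other scalings, pseudocounts, filters and thresholds, limma-voom on the recovered reads, a replicate block and leaving out each library.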

Additional observations from a re-analysis of the deposited data

How the results depend on the processing

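With scaling to GAPDH, 3031 genes passed as higher and 9738 as lower, against 5602 and 4148 in the deposited scaling, and of the elongation factor genes 1 and 26, with a median of -2.29. The signs turned for SUPT5H (-0.55), SUPT6H (-1.47), NELFE (-1.60), CTR9 (-1.64), RTF1 (-1.27), AFF4 (-0.93), TCEA2 (-1.73), CCNK (-1.35) and SETD2 (-1.14). The other pathway genes gave 0 higher and 17 lower. With scaling to total reads, 6627 genes passed as lower, 1 elongation factor gene as higher, 2 other pathway genes as higher and 11 as lower, the median was -1.21, and the signs turned for SUPT6H (-0.39), NELFE (-0.52), CTR9 (-0.56), RTF1 (-0.20), TCEA2 (-0.72), CCNK (-0.32) and SETD2 (-0.067). With quantile normalization, 1 elongation factor gene and 3 other pathway genes passed as higher, the median was -0.84, and NELFE (-0.093) and TCEA2 (-0.59) turned. With median-ratio scaling the median was -0.32 and NELFCD was at 0.071. A pseudocount of 1 and a test against a fold change of 2 each left 7 elongation factor genes lower. Without a filter, 8757 genes passed as higher, more genes being tested, and with a mean of at least 1 FPKM, 1 elongation factor gene did, since ELL3 was no longer tested. With each library left out in turn, TCEA2 ran from -0.11 to 0.11, the numbers lower from 10 to 12 and higher from 2 to 3, and the median from -0.50 to -0.43. The cause of these moves was not tested beyond what is stated.

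A replicate block in the fit gave 5667 genes higher and 4186 lower, and of the elongation factor genes 2 and 12, with no call changed. Across genes, the replicate deviations of the 2 groups correlated at 0.00537. With 2 libraries per group this cannot show whether the replicate numbers pair the libraries. Reads limit ELL3, EAF2, MLLT3 and LEO1 most.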
